A study of Rattus norvegicus with 138 samples.

Results

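In 28 female spontaneously hypertensive rats (SHR), gene expression was compared between the solitary tract nucleus (NTS) and the rostral ventrolateral medulla (RVLM). The members were all SHR libraries of both regions, 28 from the NTS and 28 from the RVLM, out of 138 libraries in the series, and the NTS and RVLM of a rat were paired through the strain, age and animal number in the library name. The series also holds the caudal ventrolateral medulla (CVLM) of the same rats and the same 3 regions of 18 normotensive Wistar-Kyoto (WKY) rats. WKY rats numbered 5 at 8 wk, 4 at 10 wk and 3 at each later age. The SHR comprised 5 rats aged 8 wk, 5 aged 10 wk, 6 aged 12 wk, 6 aged 16 wk and 6 aged 24 wk, and no group was treated. The SHR is an inbred strain in which blood pressure climbs with age, and each of the 28 rats is a separate animal. Bilateral punches from 1 animal were pooled into 1 library, and what a punch took in around the named nucleus is therefore part of its library.

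The NTS lies in the dorsal medulla and is the first relay for baroreceptor, chemoreceptor and other visceral afferents that arrive through the vagus and glossopharyngeal nerves. It holds many peptide neurons and the A2 noradrenergic group, and it borders the area postrema and the dorsal motor nucleus of the vagus. The RVLM lies in the ventral medulla and contains the C1 adrenergic neurons and the presympathetic neurons that drive sympathetic outflow, with the nucleus ambiguus and its motor neurons close by. In the baroreflex, the NTS excites the CVLM, and the CVLM inhibits the RVLM through GABA.

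An NTS library held between 6078832 and 16382711 counts in genes (median 9187426) and an RVLM library between 6737117 and 16516713 (median 10493117.5). Of 32883 genes in the tables, 13697 were expressed above the filter and were tested with edgeR's quasi-likelihood test with the rat as a block. A gene was called at a Benjamini-Hochberg adjusted p of at most 0.01 and a difference of at least 2-fold. There were 700 genes higher in the NTS (5.11% of those tested) and 370 higher in the RVLM (2.70%). The adjusted p alone was passed by 3834 genes higher in the NTS (28% of those tested) and 3956 higher in the RVLM (28.9%), of which 6720 differed by less than 2-fold. The median log2 fold change over all tested genes was 0.0035, and the median standard error was 0.068. Differences of at least 4-fold were found for 214 genes in the NTS and 82 in the RVLM, and of at least 16-fold for 34 and 8. The difference had the same direction in all 28 rats for 426 of the 700 and 241 of the 370 called genes. Values of the 28 NTS and 28 RVLM libraries did not overlap for 211 genes higher in the NTS (1.54%) and 152 higher in the RVLM (1.11%). Library names end in 1 for 21 of the rats and in 2 for 7, all 5 rats of 10 wk among them, and the sources used here do not say what this number stands for. Without these 7 rats, 1033 genes were called in place of 1070. Levels below are CPM, the counts of a gene scaled to a common library size over all libraries of the series. Log2 fold changes are NTS minus RVLM with a standard error. This error is the absolute log2 fold change divided by the square root of the test's F statistic. For genes with few counts in 1 region, it does not cover the counting error. In bulk tissue, fewer cells of a type and less RNA per cell cannot be told apart.

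The region labels were set against defining markers. Gcg and Prlh, peptides of NTS neurons, were present in every NTS library and near 0 in the RVLM. Pnmt, which makes adrenaline and marks C1 neurons, was present in all 28 RVLM libraries, although its median was higher in the CVLM (40.1 CPM) than in the RVLM (20.6 CPM). Tbx20 and Mnx1, transcription factors of motor neurons, were below the filter and were not tested.

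**Figure D1:**
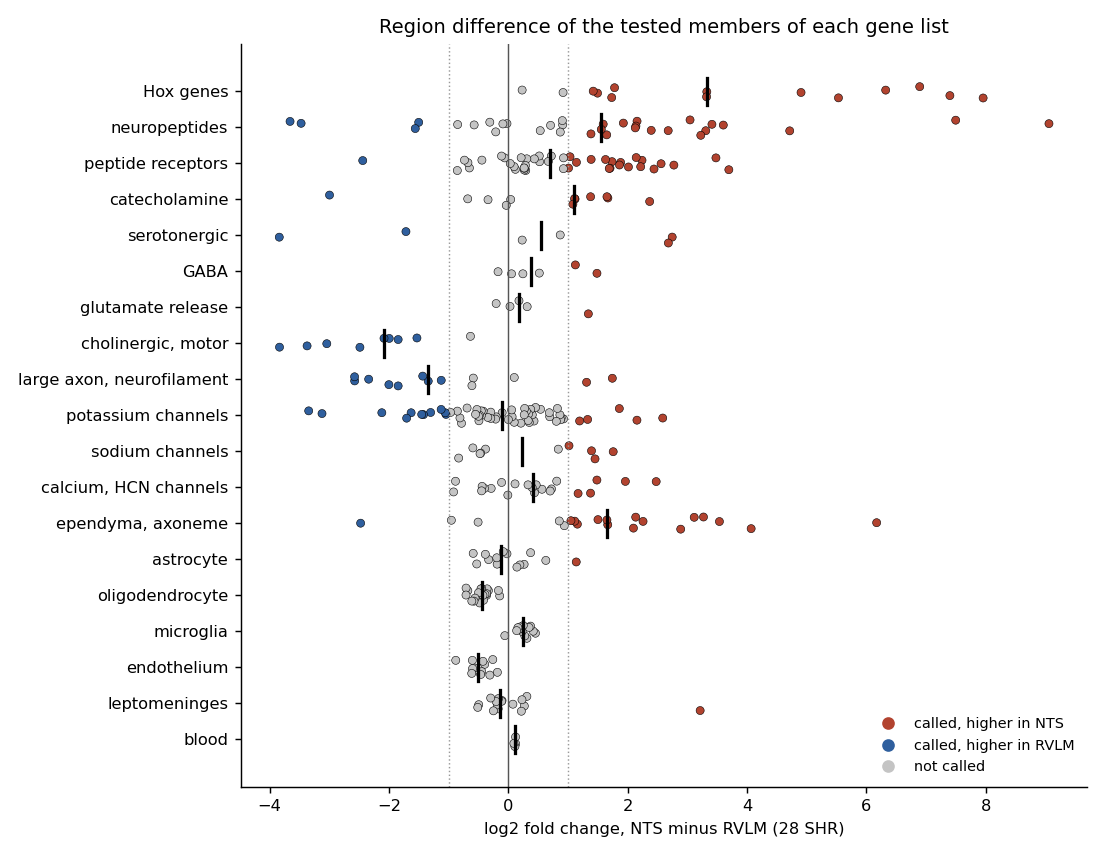
Log2 fold change between NTS and RVLM in 28 SHR (horizontal axis) for every tested member of 19 gene lists. Each point is a gene, coloured where it was called, the vertical bar is the list's median and the dotted lines mark 2-fold; Hox genes lie on the NTS side with a median of 3.32 and cholinergic and motor genes on the RVLM side with a median of -2.08.

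Neuropeptide genes were mostly higher in the NTS. Of 33 tested, 18 were called there and 4 in the RVLM, with a median log2 fold change of 1.56. By the adjusted p alone, 23 were higher in the NTS and 6 in the RVLM, and 4 did not pass. Over all tested genes, 5.11% were called in the NTS and 2.70% in the RVLM, and 28% and 28.9% passed the adjusted p alone. These shares belong beside every list count below, and no list was tested as a set. Gcg encodes the precursor of glucagon-like peptide 1, made in the brain by a group of caudal NTS neurons that restrain feeding. It ranged from 3.95 to 137 CPM in the NTS (median 49.6) and from 0 to 0.304 CPM in the RVLM (median 0.0886). The ranges did not overlap, and the 28 RVLM libraries held 25 Gcg counts in all against 15771 in the NTS. Per unit of depth, Gcg had an NTS to RVLM ratio of 681, with a 95% exact binomial interval of 461 to 1050 for counting error. Its log2 fold change of 9.06 ± 0.16 was the largest among called genes with a mean of at least 5 CPM in the higher region and the same direction in every rat (edgeR, adjusted p = 7.5e-30). Prlh, the precursor of prolactin-releasing peptide, made by a subset of A2 neurons, ranged from 1.1 to 8.55 CPM in the NTS (median 3.38) and reached at most 0.126 CPM in the RVLM. The NTS held 1184 Prlh counts and the RVLM 3, a ratio per unit of depth of 426 with a 95% exact binomial interval of 146 to 2070 that covers counting error only. Gal, the galanin precursor, ranged from 54.6 to 171 CPM in the NTS (median 103) and from 1.83 to 26 CPM in the RVLM (median 9.81), again without overlap. The Gal difference was 3.41 ± 0.23 (edgeR, adjusted p = 2.0e-13), and its CVLM median was 121 CPM.

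The promoters of the 3 peptide genes just described, all higher in the NTS of every rat, are given below. A promoter is here the stretch from 250 bases before to 50 bases after the annotated start, from RefSeq on the rat build GRCr8, which is not the build rn6 of the counts. The letters TATAAA, the core of a TATA box, were searched on both strands. They were found in 10 of 18 called neuropeptide genes with a promoter in the table, of 22 called in either region, which is 55.6%. Of those called in the NTS with a promoter in the table, 9 of 15 held them, and the other was Vip. Of all 33469 promoters in the table, 14.2% held these letters. A gene of the list counted once with a match in any of its promoters, whereas the share over all counts single promoters. Capitals mark the letters on either strand in the promoters of Gcg (chr3:67531484-67531783, minus strand), Prlh (chr9:98993913-98994212, plus strand) and Gal (chr1:210084523-210084822, minus strand), each printed 5′ to 3′ along the gene.
Gcg: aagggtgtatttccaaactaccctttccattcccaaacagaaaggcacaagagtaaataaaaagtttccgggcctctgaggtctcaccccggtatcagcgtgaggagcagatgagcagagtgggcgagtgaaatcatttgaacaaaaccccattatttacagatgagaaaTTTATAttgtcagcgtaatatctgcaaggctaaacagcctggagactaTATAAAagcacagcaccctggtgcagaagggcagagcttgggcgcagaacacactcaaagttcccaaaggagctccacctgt
Prlh: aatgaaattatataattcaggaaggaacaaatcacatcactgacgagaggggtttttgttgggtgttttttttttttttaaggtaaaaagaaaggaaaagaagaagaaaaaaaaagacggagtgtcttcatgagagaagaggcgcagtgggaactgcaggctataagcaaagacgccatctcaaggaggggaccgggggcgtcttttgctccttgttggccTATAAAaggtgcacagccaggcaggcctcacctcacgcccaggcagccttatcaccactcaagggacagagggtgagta
Gal: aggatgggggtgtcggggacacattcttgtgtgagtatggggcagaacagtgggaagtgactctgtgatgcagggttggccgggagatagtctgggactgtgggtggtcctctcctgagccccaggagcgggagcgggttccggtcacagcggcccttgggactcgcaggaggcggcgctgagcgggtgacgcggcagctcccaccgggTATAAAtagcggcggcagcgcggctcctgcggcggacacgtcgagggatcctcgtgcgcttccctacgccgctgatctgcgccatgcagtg
Gcg has 2 matches, which begin 80 and 32 bases before the start, the first of them on the opposite strand, and the match begins 29 bases before the start in Prlh and 41 in Gal. A match describes these letters alone and is no evidence of a factor at the site.

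Other peptides of visceral and feeding pathways showed the same direction. Adcyap1, the precursor of PACAP, ranged from 81.5 to 248 CPM in the NTS (median 123) and from 7.64 to 37.5 CPM in the RVLM (median 21.4), with no overlap and a log2 fold change of 2.68 ± 0.11. Pdyn, the dynorphin precursor, had medians of 72.3 and 7.57 CPM and differed by 3.22 ± 0.18. Npff, Nmu and Cck, which encode neuropeptide FF, neuromedin U and cholecystokinin, differed by 3.31, 3.60 and 2.14. Smaller differences were called for Nts (1.93), Sst (1.65), Cartpt (1.56) and Pomc (1.38), whose ranges overlapped. Hcrt (4.71), Npy (3.04), Nppc (2.39), Grp (2.16), Trh (2.13) and Pnoc (1.59) complete the 18. Penk and Tac1, which encode the enkephalins and substance P, passed the adjusted p (1.1e-07 and 5.6e-06, edgeR) at less than 2-fold, with differences of 0.91 and 0.90.

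The 4 peptide genes called in the RVLM were Calca, Calcb, Vip and Ucn. Calca, which encodes calcitonin gene-related peptide and is expressed by brainstem motor neurons, ranged from 5.52 to 112 CPM in the NTS (median 60.4) and from 238 to 760 CPM in the RVLM (median 478). Calcb, which encodes the beta form of this peptide, ranged from 2.76 to 86.7 CPM in the NTS (median 27.4) and from 144 to 675 CPM in the RVLM (median 343). Neither gene overlapped between regions, and the differences were -3.47 ± 0.27 and -3.66 ± 0.28 (edgeR, adjusted p = 6.4e-12 and 2.3e-12). Both had low levels in the CVLM, with medians of 11.3 and 27.4 CPM. Vip (-1.56) and Ucn (-1.5), which encode vasoactive intestinal peptide and urocortin, were at most 6.14 CPM in every library of both regions and overlapped.

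Receptors for peptides were also mostly higher in the NTS, with 19 of 44 tested genes called there and 1 in the RVLM, a median of 0.69. Several called receptors are partners of the peptides above. Prlhr, the receptor of prolactin-releasing peptide, ranged from 1.24 to 6.15 CPM in the NTS (median 2.6) and from 0 to 0.681 CPM in the RVLM (median 0.192) and differed by 3.69 ± 0.19. Cckar, the cholecystokinin A receptor of the gut-brain pathway, differed by 3.48 ± 0.26, Glp1r, the receptor of the Gcg product, by 1.74 ± 0.19, and Npy1r, Npy2r and Npy4r by 1.63, 1.69 and 2.24. Gfral, the GDF15 receptor known from the area postrema and NTS, ranged from 3.38 to 10.6 CPM (median 5.48) against 0.214 to 2.53 CPM (median 1.13) and differed by 2.22 ± 0.15. Calcr and Ramp3, which together form an amylin receptor, differed by 2.01 ± 0.18 and 2.77 ± 0.11. In all 28 rats, Prlhr, Cckar, Gfral, Calcr and Ramp3 were higher in the NTS.

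Agtr1a, the angiotensin II type 1a receptor through which angiotensin acts on blood pressure, ranged from 7.2 to 18.7 CPM in the NTS (median 10.5) and from 0.425 to 5.03 CPM in the RVLM (median 2.57). No RVLM library reached the lowest NTS library. The difference was 2.14 ± 0.14 (edgeR, adjusted p = 3.6e-15), and the CVLM median was 3.94 CPM. Agt, the angiotensin precursor, which in brain comes mostly from astrocytes, had medians of 1369 CPM in the NTS and 1366 CPM in the RVLM and a difference of -0.02 ± 0.05 (adjusted p = 0.68). Tacr3 (2.56), Oxtr (2.44), Sstr4 (1.88), Sstr1 (1.86), Galr1 (1.70), Hcrtr1 (1.39), Mc4r (1.14), Oprm1 (1.03) and Sstr3 (1.01) complete the 19. Vipr2, a receptor of vasoactive intestinal peptide, was called in the RVLM, with 2.74 to 14.2 CPM in the NTS (median 6.26), 12.5 to 63.6 CPM in the RVLM (median 36.8) and a difference of -2.44 ± 0.17.

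Genes of catecholamine synthesis and transport differed in opposite directions. Of 12 tested, 7 were called in the NTS and 1 in the RVLM, with a median of 1.10. Th, the rate-limiting enzyme, ranged from 72.3 to 188 CPM in the NTS (median 126) and from 21.6 to 149 CPM in the RVLM (median 54.4) and was higher in the NTS in 25 of 28 rats. Dbh, which turns dopamine into noradrenaline, ranged from 39.4 to 94.4 CPM in the NTS (median 60.4) and from 3.87 to 61 CPM in the RVLM (median 10.5). Both overlapped between regions, and the differences were 1.12 ± 0.14 and 2.37 ± 0.18 (edgeR, adjusted p = 2.3e-08 and 2.2e-12). Ddc, Slc6a2, Gch1, Slc18a2 and Cyb561, which act in decarboxylation, noradrenaline uptake, cofactor synthesis, vesicle loading and vesicle electron transport, differed by 1.65, 1.67, 1.38, 1.11 and 1.08. Leaving out 1 age brought the Th difference to 0.9996 at its lowest, just short of the fold limit.

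Pnmt, the last enzyme of the pathway, went the other way. It ranged from 0.0689 to 12.3 CPM in the NTS (median 2.48) and from 2.91 to 65.8 CPM in the RVLM (median 20.6), with -3.0 ± 0.29 (edgeR, adjusted p = 3.2e-10), and was higher in the RVLM in 27 of 28 rats. The RVLM range was wide and overlapped with that of the NTS. Crhbp, which binds corticotropin-releasing hormone, was 1 of the 12 genes picked for large differences towards the RVLM under limits on level and direction. It ranged from 0.683 to 3.88 CPM in the NTS (median 1.65) and from 2.4 to 67.8 CPM in the RVLM (median 24.5). Its ranges overlapped, and the difference was -3.88 ± 0.19. CVLM medians were 134 CPM for Th, 83.5 CPM for Dbh, 40.1 CPM for Pnmt and 15.1 CPM for Crhbp, and for Th, Dbh and Pnmt this was the highest of the 3 regions.

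**Figure D2:**
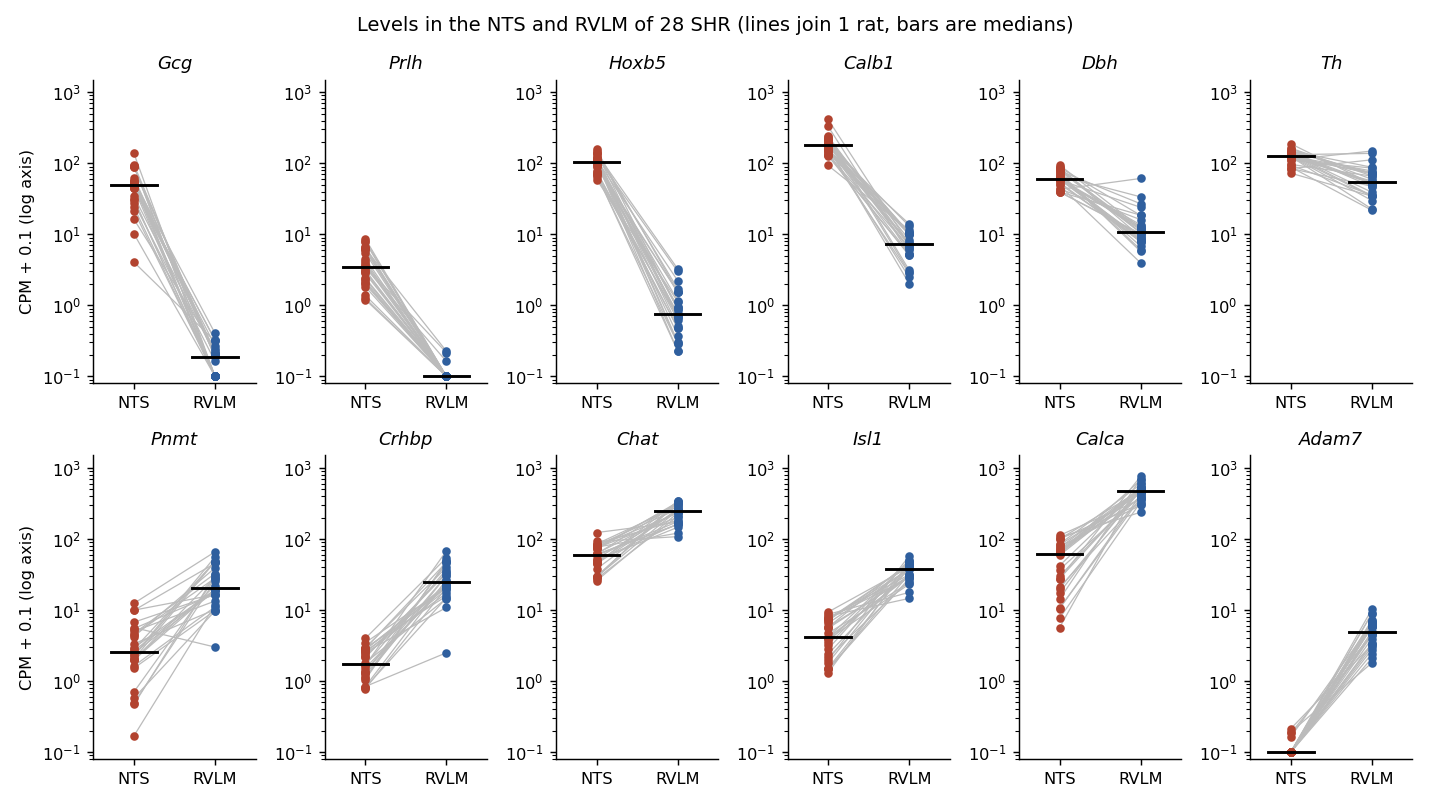
Levels of 12 genes in the NTS and RVLM of 28 SHR, in CPM plus 0.1 on a log axis. Each point is a library, grey lines join the regions of a rat and black bars are medians. Gcg, Prlh, Hoxb5 and Calb1 are higher in the NTS of every rat. Chat, Isl1, Calca, Crhbp and Adam7 are higher in the RVLM of every rat. The ranges of Dbh, Th, Pnmt, Chat and Crhbp overlap between regions.

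Cholinergic and motor neuron genes were higher in the RVLM. Of 9 tested, 8 were called there and none in the NTS, and all 9 passed the adjusted p. Chat, which makes acetylcholine, ranged from 25.8 to 123 CPM in the NTS (median 59.3) and from 108 to 347 CPM in the RVLM (median 244). The ranges overlapped slightly, but the RVLM was higher in all 28 rats, with -2.08 ± 0.18 (edgeR, adjusted p = 1.9e-11). Slc18a3 and Slc5a7, the vesicular acetylcholine and choline transporters, differed by -2.49 ± 0.20 and -2.0 ± 0.17. Isl1, a transcription factor of motor neurons, ranged from 1.22 to 9.25 CPM in the NTS (median 4.03) and from 14.5 to 57.3 CPM in the RVLM (median 37.3), with no overlap and -3.04 ± 0.21. Lhx4 (-3.37), Uts2b (-3.84), Prph (-1.85) and Ret (-1.53) were also called, and Ache differed by less than 2-fold (-0.64).

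The CVLM was the lowest of the 3 regions for Chat (median 18.6 CPM), Slc18a3 (21.4 CPM), Slc5a7 (62.4 CPM), Isl1 (2.38 CPM) and Calca (11.3 CPM). Uts2, which encodes urotensin II and is made by brainstem motor neurons, ranged from 0.193 to 9.92 CPM in the NTS (median 3.5) and from 24.5 to 189 CPM in the RVLM (median 56.2), without overlap, and differed by -4.04 ± 0.24. Chodl, a marker of fast motor neurons, ranged from 9.51 to 95.1 CPM (median 40.1) against 207 to 799 CPM (median 437) and differed by -3.68 ± 0.24. Chrna1, a nicotinic receptor subunit of muscle type, and Grin3b, an NMDA receptor subunit of motor neurons, differed by -2.33 ± 0.13 and -2.69 ± 0.19. Whether the RVLM punches took in motor neurons beside the presympathetic field was not tested. Motor markers and the C1 marker Pnmt were both present in every RVLM library.

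Genes of large axons pointed the same way, with 8 of 13 called in the RVLM and 2 in the NTS, a median of -1.34. Nefm, a neurofilament subunit, ranged from 395 to 1180 CPM in the NTS (median 753) and from 2330 to 6568 CPM in the RVLM (median 4358). No library overlapped, and the difference was -2.58 ± 0.11 (edgeR, adjusted p = 1.3e-18). Nefh and Nefl, the heavy and light subunits, differed by -2.58 ± 0.17 and -2.0 ± 0.10, and Spp1, osteopontin, found in large motor neurons, by -2.34 ± 0.10. Pvalb (1.74) and Gap43 (1.31), the calcium buffer parvalbumin and a growth cone protein, were called in the NTS. Of 10 general neuronal markers, Syt1 (1.23) was called in the NTS and Stmn2 (-1.13) and Tubb3 (-1.64) in the RVLM. Of 10 perineuronal net genes, Hapln3 (-1.24) was called in the RVLM, and of 6 nitric oxide genes, Nos1 (1.77), the neuronal synthase, was called in the NTS. Several genes, such as Pvalb, Prph and Stmn2, stand in more than 1 list.

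Hox genes, whose order along a cluster follows their front limit along the embryonic hindbrain and cord, were nearly all higher in the NTS. Of 14 tested, 12 were called in the NTS and none in the RVLM, with a median of 3.32. The 5 tested genes of paralog groups 1 to 3 had a median of 1.49 and ran from 0.23 to 1.78, and 3 of them were called. All 9 tested genes of groups 4 to 7 were called, between 1.42 and 7.95 with a median of 5.53, and 7 of them had no overlap between regions. Hoxb5 ranged from 58.7 to 158 CPM in the NTS (median 105) and from 0.126 to 3.14 CPM in the RVLM (median 0.65) and differed by 6.89 ± 0.16 (edgeR, adjusted p = 3.0e-25). Hoxc5 ranged from 18.4 to 38.1 CPM (median 26.7) against 0.0916 to 2.81 CPM (median 0.74) and differed by 4.90 ± 0.19. Every NTS library stood above every RVLM library for both.

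Hoxb6 and Hoxb7 were near the detection limit in the RVLM. The 28 RVLM libraries held 8 counts of Hoxb6 and 9 of Hoxb7 in all, against 2853 and 2152 in the NTS, where the medians were 9.6 and 6.83 CPM. Fitted differences were 7.95 ± 0.19 and 7.40 ± 0.24, and such values for genes near 0 in 1 region depend on the fit's prior count. NTS to RVLM ratios per unit of depth were 385 and 258. Their 95% exact binomial intervals, for counting error only, were 195 to 893 and 136 to 566. Hoxc6 (5.53), Hoxb4 (3.32), Hoxc4 (3.32), Hoxd3 (1.78), Hoxb2 (1.73), Hoxa2 (1.49) and Hoxd4 (1.42) were also called, and Hoxb3 (0.92) and Hoxd1 (0.23, adjusted p = 0.25) were not. Hoxa5 (6.32) is uncertain, because an unnamed gene model carried the same counts. CVLM medians lay above those of the RVLM for all 14 and below those of the NTS for 13, as for Hoxb5 (63 CPM) and Hoxc5 (23.2 CPM). The CVLM median of Hoxb7, at 0.0854 CPM, was close to 0 as in the RVLM. How far the level of a punch along the medulla differed between regions was not tested.

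**Figure D3:**
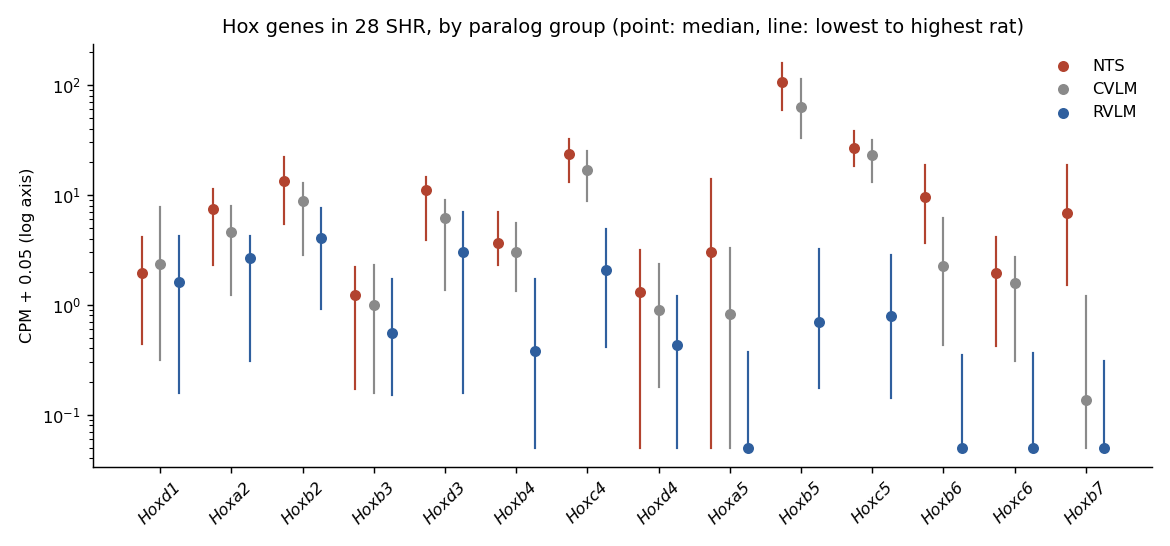
Levels of the 14 tested Hox genes in the NTS, CVLM and RVLM of 28 SHR, in CPM plus 0.05 on a log axis and ordered by paralog group. Points are medians and lines run from the lowest to the highest rat; from Hoxb4 on, RVLM points sit below NTS and CVLM points, and Hoxb5 has medians of 105, 63 and 0.65 CPM.

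Other transcription factors of the hindbrain split, with 13 of 34 called in the NTS and 4 in the RVLM and a median of 0.56. Zic4, of the dorsal neural tube, ranged from 8.58 to 16.9 CPM in the NTS (median 13.3) and from 0.451 to 2.27 CPM in the RVLM (median 1.12), without overlap, and differed by 3.62 ± 0.11. Lhx9 (3.80), Pou4f2 (2.94), Lhx2 (2.72), Ebf3 (2.63), Nr4a2 (2.29), Evx1 (1.8), Bnc2 (1.44), Ebf1 (1.35), Lhx5 (1.22), Irx1 (1.07) and Tshz2 (1.04) were among those called with it. On the RVLM side were Isl1, Gata3, Gata2 and Tal1, of which the last 3 act in serotonergic or ventral inhibitory neurons. Gata3 ranged from 0 to 1.72 CPM in the NTS (median 0.5) and from 2.25 to 18.9 CPM in the RVLM (median 8.55) and differed by -3.84 ± 0.18, and Gata2 and Tal1 by -1.72 and -1.13.

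Serotonergic genes were divided, with 2 of 6 called in the NTS and 2 in the RVLM. Tph2, the enzyme of serotonin synthesis in brain, ranged from 10.4 to 30.2 CPM in the NTS (median 20.8) and from 1.11 to 11.3 CPM in the RVLM (median 2.87). It was higher in the NTS of all 28 rats, by 2.68 ± 0.13, and the transporter gene Slc22a3 by 2.74 ± 0.25, while Gata2 and Gata3 were higher in the RVLM. The transporter Slc6a4 and the factors Fev and Lmx1b were below the filter.

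Of 5 genes of glutamate release, 1 was called in the NTS, and of 6 GABA genes 2, with none in the RVLM. Slc17a6, the vesicular glutamate transporter of the medulla, ranged from 220 to 476 CPM in the NTS (median 318) and from 79.1 to 234 CPM in the RVLM (median 121) and differed by 1.34 ± 0.10. Gad1, which makes GABA, ranged from 215 to 491 CPM (median 252) against 50.9 to 198 CPM (median 89.9) and differed by 1.48 ± 0.11, and Gad2 differed by 1.12 ± 0.11. Gad1 had no overlap, whereas Slc17a6 and Gad2 had. Slc32a1, the vesicular transporter of GABA and glycine, differed by 0.05 ± 0.14 (adjusted p = 0.75).

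Glycine transmission was split between subunits. Glra3 (1.8) and Glra2 (1.10), glycine receptor subunits, were called in the NTS, and the other 4 tested genes passed the adjusted p towards the RVLM at less than 2-fold, among them Glra1 (-0.53), the adult receptor subunit, and Slc6a5 (-0.37), the neuronal glycine transporter. Among ionotropic glutamate receptors, 2 of 16 were called in the NTS, Grik1 (1.66) and Gria2 (1.00), and 1 in the RVLM, Grin3b. Of 14 GABA-A receptor subunits, Gabrd (1.21) and Gabrq (1.16) were called in the NTS and none in the RVLM. Chrna5 (2.46), Chrm4 (1.72), Chrnb4 (1.45) and Chrm3 (1.43) were called in the NTS among 10 acetylcholine receptors, and Chrna1 and Chrm2 (-1.07) in the RVLM. Of 6 adrenergic receptors, Adra1d (-2.10) was called in the RVLM and none in the NTS. Called shares over all tested genes were 5.11% in the NTS and 2.70% in the RVLM.

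Of 10 sodium channel genes, 4 were called in the NTS and none in the RVLM, with a median of 0.23. By the adjusted p alone, 5 were higher in the NTS and 4 in the RVLM, beside 28% and 28.9% of all tested genes. Scn3b, a beta subunit, ranged from 95.1 to 194 CPM in the NTS (median 141) and from 21.3 to 78 CPM in the RVLM (median 37.4), without overlap, and Scn3b, Scn2a, Scn3a and Scn9a differed by 1.76, 1.45, 1.39 and 1.02. Scn4b (-0.83), Scn8a (-0.48) and Scn1a (-0.46) were among those higher in the RVLM. Of 22 calcium and HCN channel genes, 5 were called in the NTS and none in the RVLM, namely Cacng5 (2.48), Cacnb3 (1.96), Cacna1e (1.48), Cacna2d1 (1.38) and Hcn3 (1.17).

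Of 59 potassium channel genes, 5 were called in the NTS and 11 in the RVLM, with a median of -0.11. By the adjusted p alone, 22 were higher in the NTS and 28 in the RVLM. Shares over all tested genes were 5.11% and 2.70% for calls, and 28% and 28.9% by the adjusted p alone. Kcnf1 (2.59), Kcna5 (2.15), Kcnh7 (1.86), Kcnk2 (1.33) and Kcna3 (1.19) were called in the NTS. Kcnj14, an inward rectifier of motor neurons, ranged from 9.51 to 53.3 CPM in the NTS (median 27.3) and from 89.5 to 349 CPM in the RVLM (median 226), without overlap, and differed by -3.12 ± 0.19. Kcng4, a modulatory subunit, differed by -1.71 ± 0.09 with medians of 60.4 and 196 CPM. The others called in the RVLM were Kcne3 (-3.35), Kcnmb4 (-2.12), Kcnj12 (-1.63), Kcnd1 (-1.45), Kcne5 (-1.42), Kcnab1 (-1.30), Kcns3 (-1.13), Kcnk3 (-1.06), an acid-sensitive leak channel, and Kcna1 (-1.05).

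Among the other genes with the largest differences towards the NTS, Calb1, the calcium buffer calbindin, ranged from 92.9 to 414 CPM in the NTS (median 179) and from 1.92 to 13.9 CPM in the RVLM (median 7.09) and differed by 4.69 ± 0.17. P2rx2, an ATP-gated channel, ranged from 11.3 to 34.8 CPM (median 19.6) against 0.542 to 2.25 CPM (median 1.37) and differed by 3.80 ± 0.09 (edgeR, adjusted p = 1.7e-26). Neither overlapped. Scgn, a calcium sensor, differed by 4.59 ± 0.18, Tm4sf4 by 4.52 ± 0.22, the ciliary gene Enkur by 3.95 ± 0.16, Grem1, a BMP antagonist, by 3.82 ± 0.20 and Ppp1r32 by 3.75 ± 0.18. Each was higher in the NTS of all 28 rats.

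Towards the RVLM, Adam7 had the largest difference among called genes with a symbol that met the limits given for Gcg. These were a mean of at least 5 CPM in the higher region and the same direction in every rat. Adam7 encodes a member of a family of membrane proteins with disintegrin domains. It ranged from 1.7 to 10.2 CPM in the RVLM (median 4.8) and reached at most 0.114 CPM in the NTS, whose 28 libraries held 4 counts in all against 1577. The fitted difference was -7.78 ± 0.22 (edgeR, adjusted p = 5.0e-25), and CVLM levels were at most 0.45 CPM. Per unit of depth, the RVLM to NTS ratio of Adam7 was 365. Its 95% exact binomial interval, for counting error only, was 142 to 1340. Cyp26b1, which degrades retinoic acid, ranged from 0 to 2.05 CPM in the NTS (median 0.612) and from 12 to 29.9 CPM in the RVLM (median 18.3) and differed by -4.82 ± 0.17. Alb, albumin, ranged from 0 to 1.77 CPM (median 0.479) against 7.05 to 17.1 CPM (median 10.7) and differed by -4.26 ± 0.15. Adam7, Cyp26b1 and Alb had no overlap, and their CVLM medians of 0, 1.34 and 2.32 CPM were nearer to those of the NTS.

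The last of the 12 were Trim58 (-3.44 ± 0.22), the small heat shock protein gene Hspb1 (-3.40 ± 0.22) and Grifin (-3.31 ± 0.17), beside Uts2, Crhbp, Gata3, Chodl, Calcb and Calca. Hspb1, known from motor and sensory neurons, ranged from 6.3 to 71 CPM in the NTS (median 24.4) and from 80.7 to 431 CPM in the RVLM (median 258). Its ranges did not overlap either.

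Among the markers of oligodendrocytes, their precursors, astrocytes, microglia and vessels, only Gfap was called. No oligodendrocyte marker was called among 19 tested, but 16 passed the adjusted p towards the RVLM, with a median of -0.45. Their summed level ran from 21599 to 51326 CPM in the NTS (median 29382) and from 35557 to 56581 CPM in the RVLM (median 46376). All 14 endothelial markers and 7 of 10 mural cell markers passed towards the RVLM below 2-fold, with medians of -0.51 and -0.31. Of 14 microglial markers, 9 passed towards the NTS below 2-fold with a median of 0.24. The shares of all tested genes passing the adjusted p were 28% towards the NTS and 28.9% towards the RVLM. Among 16 astrocyte markers, Gfap was called in the NTS, at 373 to 907 CPM (median 529) against 90.3 to 606 CPM (median 231), by 1.14 ± 0.16, and the list had a median of -0.13. None of 9 markers of oligodendrocyte precursors was called, and none of 4 blood markers passed. The part of these markers' differences in those of neuronal genes was not tested.

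Axoneme genes, which build motile cilia and in brain mark ependymal cells along the ventricles, were mostly higher in the NTS, with 15 of 20 called there and 1 in the RVLM and a median of 1.66. Rsph9, a radial spoke gene, ranged from 19.4 to 51.6 CPM in the NTS (median 34) and from 1.53 to 7.25 CPM in the RVLM (median 3.95), without overlap, and differed by 3.11 ± 0.12. Tmem212 (6.17), Cfap126 (4.07), Ak7 (3.54) and Dnah12 (3.27) differed more, at levels of at most 18.4 CPM and with overlapping ranges. Spag6 (-2.48) was called in the RVLM, and Tppp3 (-0.96), also expressed by oligodendrocytes, passed below 2-fold. Because Tppp3 has most of the list's counts, the summed level was higher in the RVLM, with medians of 517 and 796 CPM, and higher in the NTS in 3 of 28 rats. Foxj1, the master factor of motile cilia, was below the filter.

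The letters GTTGCC, part of the X-box that RFX factors of ciliated cells bind, were searched on both strands of the same promoters. They were found in 6 of 18 tested axoneme genes with a promoter in the table, of 20 tested, which is 33.3%. Of those called in the NTS with a promoter in the table, 4 of 14 held them (28.6%). The others were Dnah11, which was not called, and Spag6, which was called in the RVLM and held the letters at 2 places. Of all 33469 single promoters, 12.2% held them, whereas a gene of the list counted once with a match in any of its promoters. Capitals mark the letters in Mlf1 (chr2:153958341-153958640, plus strand) and Tekt1 (chr10:57479072-57479371, minus strand), both on GRCr8 and called in the NTS at 1.5 and 1.05.
Mlf1: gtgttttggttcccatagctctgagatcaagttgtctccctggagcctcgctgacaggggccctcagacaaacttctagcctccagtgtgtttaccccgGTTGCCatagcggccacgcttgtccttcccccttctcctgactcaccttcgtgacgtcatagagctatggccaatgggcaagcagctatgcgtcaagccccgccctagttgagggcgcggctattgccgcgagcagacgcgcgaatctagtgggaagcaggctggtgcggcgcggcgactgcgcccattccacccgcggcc
Tekt1: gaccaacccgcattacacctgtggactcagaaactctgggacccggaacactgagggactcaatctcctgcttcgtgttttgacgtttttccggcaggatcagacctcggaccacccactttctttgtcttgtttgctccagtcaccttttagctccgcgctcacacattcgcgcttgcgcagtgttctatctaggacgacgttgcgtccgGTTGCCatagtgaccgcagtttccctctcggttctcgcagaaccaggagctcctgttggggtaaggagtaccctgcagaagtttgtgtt
The match begins 151 bases before the start in Mlf1 and 39 in Tekt1, and it is again a description of letters. The promoter of Rsph9 does not hold these letters.

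Markers of tissues that border the punches were mixed. Among 16 leptomeningeal markers, Aldh1a2 was called in the NTS, at 6.01 to 60 CPM (median 20.1) against 0.456 to 7.45 CPM (median 2), by 3.21 ± 0.24, and 13 did not pass. Of 7 choroid plexus markers, Folr1 (3.64) and Prlr (1.14) were called in the NTS and Clic6 (-2.28) and Slc4a5 (-1.39) in the RVLM, and the defining marker Ttr was below the filter. Cbln1 (3.32) and Neurod1 (2.6), used as cerebellar granule cell markers and also expressed elsewhere in the hindbrain, were called in the NTS, and Gabra6, which defines granule cells, was below the filter. Of 6 Purkinje cell markers, Calb1, Ppp1r17 (2.82) and Pvalb were called in the NTS. Pmp22 (-2.39) was called in the RVLM among 4 Schwann cell markers, with medians of 118 and 609 CPM. Of 10 immediate early genes, Atf3 (-1.20) was called in the RVLM and 7 passed towards it. Of 14 glucocorticoid response genes, none was called and 9 passed towards the RVLM. The share passing towards the RVLM over all tested genes was 28.9%.

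The CVLM of the same rats gives another level for each gene, described here without a test. Its median lay between those of the NTS and RVLM for 73.2% of the 1070 called genes. Among the 700 genes higher in the NTS, the CVLM median was nearer to the RVLM for 441 and nearer to the NTS for 259. Among the 370 higher in the RVLM, it was nearer to the NTS for 267 and nearer to the RVLM for 103. Motor genes such as Isl1 and Chat, lowest in the CVLM, belong to the 267.

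The region difference was then asked for at each age. At 8 wk, 1060 genes were called, 619 towards the NTS and 441 towards the RVLM. The 10 wk rats gave 1189 (805 and 384), the 12 wk rats 952 (624 and 328), the 16 wk rats 728 (492 and 236) and the 24 wk rats 1198 (739 and 459). Depth was not equal, as NTS libraries held 13537487 to 16382711 counts at 10 wk and 6416988 to 10801944 at 16 wk. In the RVLM these were 14020844 to 15926486 and 9077639 to 11892777. All library names of 10 wk end in 2. The numbers of calls were not compared between ages by a test. Of the 1070 genes called over all ages, 1068 had the same sign at every age, and 523 genes were called at all 5 ages. Gcg differed by 10.50, 8.51, 11.63, 8.27 and 8.86 in the order of the ages, Dbh by 2.12, 2.69, 1.90, 2.25 and 2.86 and Pnmt by -3.01, -2.92, -2.80, -3.57 and -2.61. None of these 3 passed a test of whether the difference varied with age (adjusted p of 0.71, 0.87 and 0.97, edgeR). Gcg was at 0 CPM in every RVLM library of 12 wk, so its value of 11.63 depends on the fit's prior count.

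A difference that varied with age was found for 2 genes (0.0146% of those tested, adjusted p under 0.05), while 955 passed at an unadjusted p under 0.05. Cfap52, an axoneme gene, differed by 0.52, 1.33, 0.16, 1.11 and 1.64 in the order of the ages (edgeR, adjusted p = 0.045). Pnpla2, an adipose lipase gene, was at 0 in most libraries of both regions and had a standard error of 4.69, so that its call (adjusted p = 0.030) rests on a few libraries with counts. The number of genes was 0 without 8 wk rat 3, 12 wk rat 4, 16 wk rat 6 or 24 wk rat 6, 3 without 10 wk rat 2, 18 without 12 wk rat 2, 11 without the rat as a block and 63 in DESeq2. Between 24 and 8 wk, the difference changed for 0 genes in edgeR (777 at an unadjusted p under 0.05) and for 2 in DESeq2 (756 unadjusted). The next 7 genes by p, Chodl, Ms4a4a, Mzb1, Rspo2, Lcp1, Arhgap36 and Uts2, shared an adjusted p of 0.108. Of these, Chodl differed by -5.34, -3.81, -3.37, -2.35 and -3.94 and Uts2 by -6.03, -4.64, -3.85, -2.82 and -3.81. Chat medians at these ages were 29.1, 52.9, 60.4, 84.9 and 54.2 CPM in the NTS and 295, 249, 243, 178 and 293 CPM in the RVLM.

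**Figure D4:**
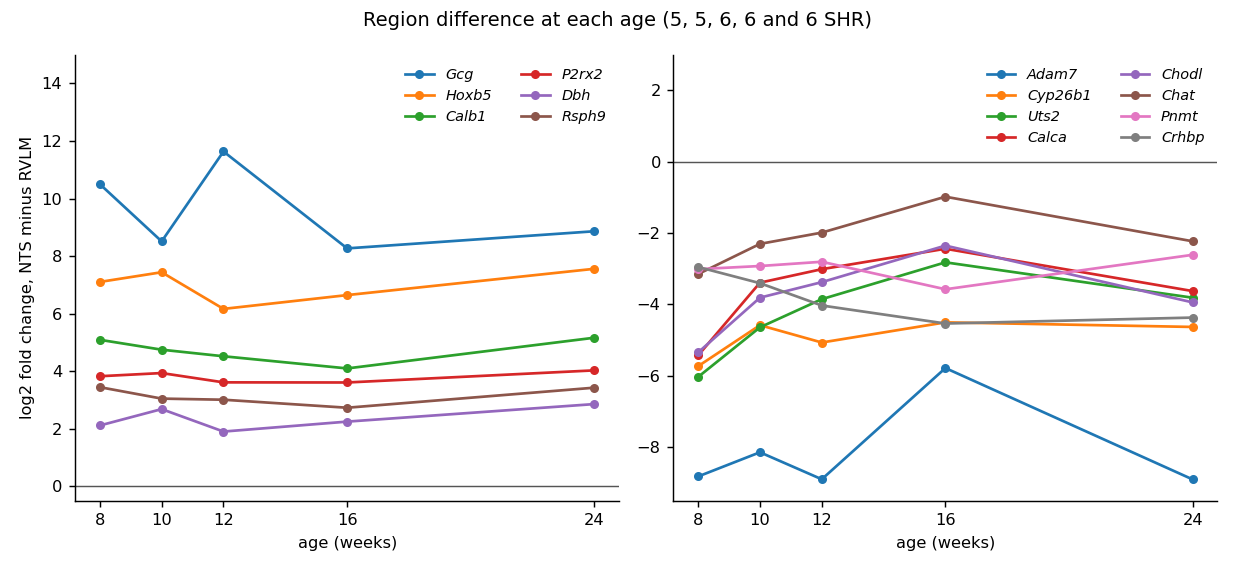
Log2 fold change between NTS and RVLM by age in weeks (5, 5, 6, 6 and 6 SHR in order of age), for 6 genes higher in the NTS (left) and 8 higher in the RVLM (right). Each line is a gene and no error is drawn; every gene keeps its sign at all ages, and Chodl and Uts2 have their smallest difference at 16 wk.

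WKY rats, the normotensive strain, were used to ask which region differences were of another size in SHR. In 18 WKY rats, 1409 genes were called between NTS and RVLM (10.3% of those tested). The genes tested were those that passed the filter in SHR libraries, so genes expressed in WKY rats alone could not be called. The 1005 genes called in both strains were 93.9% of the SHR calls and 71.3% of the WKY calls, and none was called in opposite directions. Of the 1070 SHR calls, 1068 had the same direction in WKY, and the median absolute log2 fold change of these 1070 was 1.48 in SHR and 1.77 in WKY. The difference between regions differed between strains for 186 genes (1.36%, edgeR, adjusted p under 0.05), with NTS minus RVLM higher in SHR for 49 and lower for 137, and 61 of the 186 were among the SHR calls. Leaving out the rats of 8, 10, 12, 16 or 24 wk gave 84, 97, 94, 151 and 137 genes, and DESeq2 gave 269. At 8 wk, all SHR library names end in 1, while those of WKY rats end in 1 or 2. At 12 and 24 wk, only SHR have names ending in 2. The strain term was not run without names ending in 2, so a part of this number in it was not tested.

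Cfap206, an axoneme gene, had the smallest p. Its level ranged from 1.57 to 9.39 CPM in the NTS (median 3.84) and from 0 to 0.449 CPM in the RVLM (median 0.15) of SHR, and from 23.7 to 45 CPM (median 33.1) and 7.09 to 14.4 CPM (median 11) in WKY. The strains did not overlap in either region. The region difference was 4.85 in SHR and 1.62 in WKY, each from a fit of that strain alone without region by age terms. The strain difference was 3.20 ± 0.23 (edgeR, adjusted p = 1.0e-13), from 1 fit of both strains with region by age terms. This holds for all strain pairs below, so a tested strain difference need not equal the subtraction of its pair. Nov differed between regions by 1.91 in SHR and 3.61 in WKY, Terf2ip, a telomere protein gene, by 0.14 and 0.78, Aldh1a1, a retinaldehyde dehydrogenase gene, by -1.45 and -2.51 and Cbs, of transsulfuration, by 0.64 and 1.78. For Nov, RVLM medians were 3.19 CPM in SHR and 0.776 CPM in WKY, and for Cbs 45.9 and 12.3 CPM.

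Of the 44 peptide receptors, 8 were among the 186, beside 1.36% of all tested genes. The difference towards the NTS was smaller in SHR for Npy4r (2.24 in SHR and 4.61 in WKY), Tacr3 (2.56 and 3.63), Npy2r (1.69 and 2.95) and Mc4r (1.14 and 2.10). Calcrl (0.92 and 0.44) had a larger difference towards the NTS in SHR, Trhr (-0.74 and -0.29) a larger one towards the RVLM, and Tacr1 (-0.68 and 0.18) and Ramp1 (0.31 and -0.17) had opposite signs. Tacr3, the neurokinin B receptor, had NTS medians of 21.2 CPM in SHR and 42.7 CPM in WKY, with RVLM medians of 3.4 and 3.29 CPM. Mc4r, the melanocortin receptor linked to sympathetic tone, had RVLM medians of 5.85 CPM in SHR and 3.49 CPM in WKY. Outside the receptors, Adcyap1 differed between regions by 2.68 and 3.51, Kcnk2, a leak potassium channel, by 1.33 and 2.13 and Scn9a by 1.02 and 2.02.

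Agt did not differ between regions in SHR, but in WKY it was higher in the NTS by 0.34 ± 0.05, with medians of 1354 CPM in the NTS and 1039 CPM in the RVLM. The strains differed by -0.38 ± 0.07 (edgeR, adjusted p = 7.4e-04). Agtr1a differed by 2.14 and 2.21 (adjusted p = 0.92 for the strain difference). For Th (1.12 and 2.04, adjusted p = 0.064), Dbh (2.37 and 3.37, adjusted p = 0.095) and Pnmt (-3.0 and -1.33, adjusted p = 0.087), the strain difference did not pass at 0.05. Chat, Gcg and Hoxb5 gave adjusted p values of 0.55, 0.67 and 0.61.

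**Figure D5:**
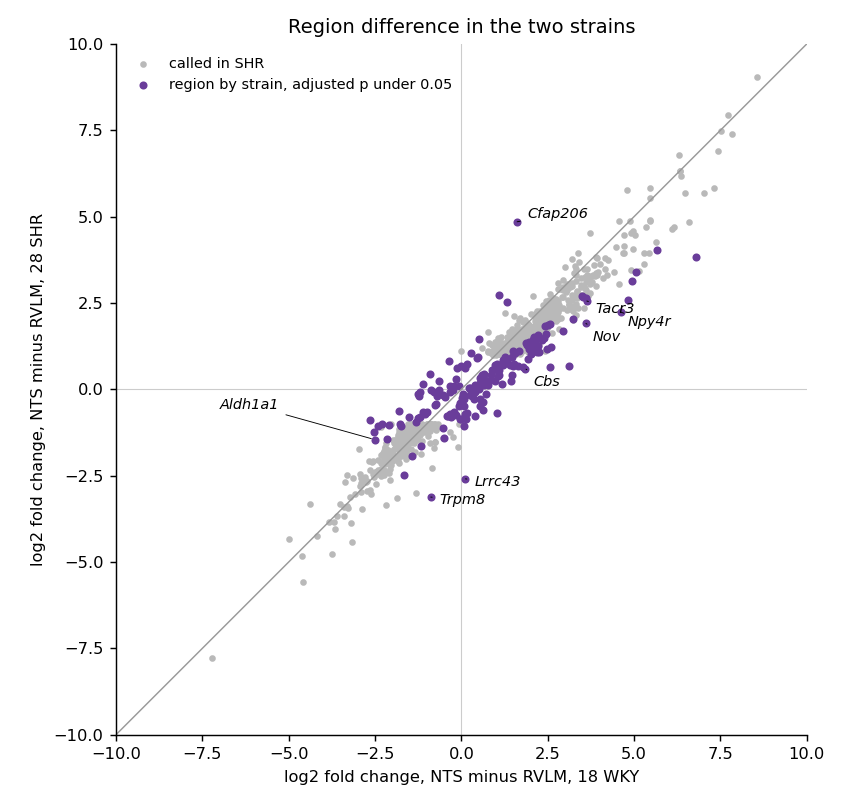
Log2 fold change between NTS and RVLM in 18 WKY rats (horizontal axis) and 28 SHR (vertical axis). Grey points are the 1070 genes called in SHR and purple points the 186 genes whose region difference differed between strains; the grey diagonal marks equal values, and Cfap206 lies at 4.85 in SHR and 1.62 in WKY.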

How the data were processed

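RNA was sequenced from bilateral tissue punches of 138 samples, of which the 56 SHR libraries of the NTS and RVLM were compared here and those of the CVLM and of WKY rats were used beside them. Per the methods, the authors mapped reads to rn6 with STAR within RSEM and deposited the expected counts per gene, 1 table per region with 32883 genes, without normalization. About 5% of the values are not whole (5.02% in the NTS, 4.88% in the RVLM). The methods name an adjustment of batches with ComBat_seq, and whether the deposited values are from before or after it is not stated. No column was left unused (0). Expected counts were rounded. Genes with a maximum of at least 3.5 after DESeq2's rlog transformation in these libraries were kept (13697).

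Counts were normalized with TMM and fitted in edgeR 4.0.16 (R 4.3.3, limma 3.58.1) with the quasi-likelihood test and robust estimation, region as the term and the rat as a block, with P values adjusted by Benjamini and Hochberg over all tested genes. Calls required an adjusted p of at most 0.01 and a 2-fold difference, and terms of region by age and region by strain an adjusted p under 0.05. CPM used TMM factors over all 138 libraries. NTS and RVLM of a rat come from 1 brainstem per the methods, which is the source of the pairing. Deviations of the 2 libraries of a rat from their age groups correlated from -0.243 to 0.834 (median 0.261 over 10400 genes), above 0.1 for 19 of 28 rats. The median between different rats of an age was -0.066. Deviations within an age group sum to 0, which pushes this value below 0 in advance, so it is no separate baseline. For 11 of 28 rats, the NTS library correlated best with its own rat's RVLM library among the rats of its age. These values therefore do not establish the pairing. Rats are separate animals, and among 130 pairs within a group the lowest chi-square per gene was 5.30, so that no library was a repeat.

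The genes named are the tested members of 36 lists (transmitters, peptides, receptors, channels, hindbrain factors and markers of other cell types), the 12 largest differences in each direction among called genes with a symbol, a mean of at least 5 CPM in the higher region and the same direction in all 28 rats, and the 5 smallest adjusted p of the age and strain terms. The comparison and lists were chosen with earlier results of these data known, and a few members are not reported here. DESeq2 1.42.0, RLE scaling, other filters, a fit without the block and leaving out rats or ages were the alternatives, and leaving out the 7 rats with names ending in 2 was added after seeing the data. The scripts were tested on simulated counts. At median depths of 9187426 (NTS) and 10493117.5 (RVLM) counts per library, the median standard error of a difference was 0.068, and intervals on counts cover counting error only.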

Additional observations from a re-analysis of the deposited data

Results flagged for a closer look

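For the genes with the largest differences, the rats of each age were compared by their own log2 ratio of NTS to RVLM. In 6 of 120 sets of rats, 1 rat stood apart from the others by Dixon's test, and 6 would be flagged by chance. The Gcg ratio was 2.64 in the lowest rat of 16 wk against 5.84 to 7.26 in the other 5. The Hoxc5 ratio was 4.44 in the lowest rat of 10 wk against 4.92 to 5.03. Adam7 had -2.5 in the highest rat of 24 wk against -3.94 to -3.42. Alb had -2.76 in the highest rat of 10 wk against -3.59 to -3.36, and -4.65 in the lowest rat of 16 wk against -3.71 to -3.21. Calca had -5.36 in the lowest rat of 12 wk against -2.97 to -1.68. All of these ratios kept the direction of their gene.

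The region difference varied with age for Pnpla2 (edgeR, adjusted p = 0.03) and Cfap52 (adjusted p = 0.0452). Without the rat as a block, the adjusted p was 0.741 and 0.436, and leaving out 1 rat gave 0.0166 to 0.0972 for Pnpla2 and 0.0349 to 0.119 for Cfap52. In DESeq2 the values were 0.982 and 2.6e-04.

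The region difference (NTS minus RVLM, log2) also differed between strains at an adjusted p under 0.05 (edgeR), and the values here are SHR minus WKY. It was 3.2 for Cfap206, -1.77 for Nov, -0.66 for Terf2ip, 1.08 for Aldh1a1 and -1.12 for Cbs. Among receptors and their partners it was -2.33 for Npy4r, -1.25 for Npy2r, -1.09 for Tacr3, -0.85 for Tacr1, -0.95 for Mc4r, -0.52 for Trhr, 0.45 for Ramp1, 0.53 for Calcrl and 0.74 for Chrna4. Channel genes had -0.81 (Kcnk2), -0.54 (Kcnn3), -0.28 (Kcnip4), -1.09 (Scn7a), -0.97 (Scn9a) and 0.45 (Scn4b). Adcyap1 had -0.77, Agt -0.38, Kl, a choroid plexus marker, -2.47, Tagln, a mural marker, 0.69 and the factor Pbx3 0.6. Pnpla2, Cfap52 and these strain values were not weighed further.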

How the results depend on the processing

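The 1070 calls kept their number within 1.5 times under RLE scaling (1065), filterByExpr (1294), DESeq2 (1082), no block for the rat (1058), leaving out an age (1022 to 1149) or the 7 rats with names ending in 2 (1033). Leaving out 1 rat gave 1034 to 1099 calls, 680 to 716 in the NTS, 339 to 385 in the RVLM and 7553 to 7792 by adjusted p alone. With no filter there were 1677 calls, 1163 of them in the NTS, over 22684 genes tested, and at a log2 fold change of at least 2 there were 296, 214 in the NTS and 82 in the RVLM.

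The number of genes that varied with age was unstable. Without the replicate block, 11 genes varied with age in place of 2, against 1 with no filter, 63 in DESeq2 and 0 to 18 with 1 rat left out, and the cause was not tested. Between 24 and 8 wk, DESeq2 called 2, and leaving out a rat gave 0. Calls at an age with 1 rat left out ran from 912 to 1064 (8 wk), 962 to 1249 (10 wk), 852 to 1042 (12 wk), 651 to 730 (16 wk) and 1056 to 1301 (24 wk), and without the block they were 1007, 1111, 902, 689 and 1144. By strain, 84, 97 and 94 genes were left without the 8, 10 or 12 wk rats and 137 without the block.

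Of 186 named or list genes that were called, none reversed under any alternative run. RLE, no filter and DESeq2 kept all 186, filterByExpr 185 (Gria2 lost), no block 181 (Gria2, Oprm1, Sstr3, Scn9a and Gfap lost), leaving out the 7 rats 181 (Oprm1, Tshz2, Tal1, Scn9a and Prlr lost), any 1 rat 181 (Gria2, Oprm1, Sstr3, Irx1 and Scn9a lost) and any 1 age 175 (these 5 with Th, Gabrd, Chrm2, Kcna1, Kcnk3 and Tekt1). Depth limits genes near 0 in 1 region, such as Prlh and Adam7, whose fold is known only within wide counting intervals.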

Other observations

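Genes of retinoic acid signalling, chosen after their values were seen, pointed to both sides. Rarb, a retinoic acid receptor, ranged from 28.3 to 49.6 CPM in the NTS (median 35.7) and from 3.66 to 14 CPM in the RVLM (median 7.43) and differed by 2.30 ± 0.05. Stra6, a receptor for retinol transport, Crabp1, which binds retinoic acid, and Aldh1a2, which makes retinoic acid, differed by 2.72, 1.26 and 3.21. Cyp26b1, which degrades retinoic acid, and Aldh1a1 were higher in the RVLM, by -4.82 and -1.45. All 6 passed the adjusted p and the fold limit (edgeR).

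Of the complement genes, 5 are given that were picked because their region difference differed between strains, with no count over the others. C1s was higher in the RVLM of SHR (-0.48) and higher in the NTS of WKY (0.53), and the strains differed by -1.05 ± 0.12 (edgeR, adjusted p = 4.6e-08). NTS medians of C1s were 12.3 CPM in SHR and 24.4 CPM in WKY, with 16.9 and 16.5 CPM in the RVLM. C1r (-0.84), Serping1 (-1.19), C4a (-0.84) and C2 (-0.43) differed between strains in the same direction.

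Levels of 8 pairs of marker genes over the 28 rats within a region are given as a description, since the pairs were picked for their values, on log2(CPM + 0.5). In the RVLM, Pnmt and Chat had a Pearson r of -0.715 and a Spearman rho of -0.721, with an r of -0.647 after centring by age, -0.662 without the 2 rats farthest from the Pnmt median, and -0.789 and -0.764 in the 21 and 7 rats with library names ending in 1 and 2. Pnmt and Isl1 had r of -0.767 and rho of -0.789, and -0.706 without the 2 farthest rats. Pnmt and Crhbp had r of 0.944 and rho of 0.934 (0.921 without the 2 rats), and Chat and Isl1 0.769 and 0.743 (0.713). In the NTS, Gcg and Hoxb7 had r of 0.88 and rho of 0.854 (0.82 without the 2 rats), Gcg and Pnmt -0.745 and -0.79 (-0.666), Th and Dbh 0.892 and 0.868 (0.86), and Chat and Calca 0.855 and 0.848 (0.813). The 2 genes of a pair share a library and its depth, and the position of the punches was not measured.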
